A study of Mus musculus with 70 samples.

Results

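Among genes that are rarely discussed in Treg biology, Cpm, Ctla2a, Rab4a, Ptpn13, Tbc1d4, Rln3, Tent5a and Actn1 were followed across tissue Tregs sorted by the IL-33 receptor ST2. They are 8 of the 53465 gene IDs in the count table, and they were picked because their RNA differed between ST2+ and ST2- Tregs in several tissues. The difference between ST2+ and ST2- Tregs is therefore given as a description, and the calls counted in it restate the choice and support nothing, while the differences between tissues and between CD44hi and central Tregs were tested. All 8 passed the filter on low counts, which left 13173 tested genes.

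The RNA came from 5 male Foxp3YFP-cre mice between 16.6 and 18.6 weeks old, whose Foxp3 locus drives YFP and Cre, so that YFP+ CD4+ cells are Tregs. From each mouse, ST2+ CD44hi and ST2- CD44hi Tregs were sorted from blood, spleen, lungs, visceral adipose tissue (VAT), colon and back skin, and ST2- CD44lo Tregs, called central Tregs here, were sorted from spleen and lungs. This gave 14 groups of 5 libraries, and the labels name no other allele and no treatment. Most libraries were made from 220 cells, but VAT ST2- libraries held 93 to 220 and blood ST2+ libraries 55 to 220. CD4+ T cells were enriched with magnetic beads from spleen and lungs only. Lungs, VAT, colon and skin were digested with collagenase, skin for longer and colon after steps with EDTA, while blood and spleen were not digested. Tissue and preparation therefore cannot be told apart in comparisons between tissues, lungs against spleen included.

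ST2, the product of Il1rl1, is the receptor for the alarmin IL-33, and ST2+ Tregs are known for their place in barrier tissues and fat. Tregs leave a resting, recirculating state marked by CCR7 and become effector Tregs with high CD44, and the transcription factor GATA3 supports ST2 expression in them. The genes here act around the membrane and its traffic (a peptidase, a peptide hormone, a protease inhibitor, a Rab GTPase and a Rab GTPase-activating protein), in phosphotyrosine signaling, in RNA metabolism and in the actin cytoskeleton.

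Of the 70 libraries, 67 held more than 1000000 counts (1304560 to 2759926, median 2039002). The other 3, from blood ST2+ Tregs of mouse 1 and colon ST2+ Tregs of mice 2 and 5, held 488666, 3582 and 62333 counts and are described apart at the end. Foxp3 lay between 105 and 414 CPM (counts scaled to 1000000 per library) in the 67 libraries, and Cd8a had counts in 2 of them. The sum of the 3 CD8 and NK markers (Cd8a, Cd8b1 and Ncr1) was nevertheless above 0 in every group and reached 98.5 CPM in VAT ST2+ Tregs. In spleen ST2- Tregs, where Cd8a and Ncr1 were at 0, Cd8b1 alone gave 18.2 to 50.2 CPM. Myeloid markers stood out in the 3 colon ST2+ libraries, where the 8 markers summed to 1096 to 1303 CPM against 33.5 to 236 CPM in colon ST2- Tregs. In the same colon ST2+ libraries, markers of stroma, fat and endothelium summed to 364 to 1046 CPM, against 57.4 to 802 CPM in colon ST2- Tregs. Epithelial markers there summed to 178 to 798 CPM, against 37.5 to 629 CPM. Epithelial markers reached 1131 CPM in 1 skin ST2- library. Platelet and red cell markers reached 451 CPM in blood ST2+ and 424 CPM in blood ST2- Tregs. Within groups, the correlation of each marker sum with each gene was computed as a description over 67 libraries that share depth and scaling, and the highest for markers of another cell type was 0.48, between B cell markers and Rab4a. The part of these markers in the results on colon, skin and blood was not tested.

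In every one of the 6 tissues, Cpm, Ctla2a, Rab4a, Ptpn13, Rln3 and Tent5a had a higher mean in ST2+ than in ST2- CD44hi Tregs, and Tbc1d4 and Actn1 a lower one. For Actn1 the sign turned in skin without mouse 3 (log2 0.70) and in colon without mouse 4 (0.19). The widest folds were those of Rab4a, Tbc1d4 and Actn1. For Ctla2a, Rab4a, Ptpn13, Tent5a and Actn1 the fold was narrowest in skin, where the ST2- mean of Ctla2a, Rab4a, Ptpn13 and Tent5a was the highest of the 6 ST2- CD44hi groups and both populations held little Tbc1d4 and Actn1. A gene was called where its fold was at least 1.5 and the adjusted p of edgeR at most 0.05. By that rule 8 of 8 genes were called in VAT (3.12% of the 13173 tested genes were called there), 6 in blood (4.04%), 5 in lungs (0.782%), 3 in spleen (0.319%), 1 in colon (0.0683%) and 1 in skin (0.213%). The genes were chosen on these contrasts, so these calls follow from the choice and are no evidence of a difference. In bulk libraries, fewer cells expressing a gene and less RNA per cell cannot be told apart.

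Within a mouse the direction was nearly constant. Of the 27 ST2+ and ST2- library pairs of the same tissue and mouse, Cpm, Ctla2a, Rab4a and Rln3 were higher in ST2+ Tregs in 27, Tent5a in 26 and Ptpn13 in 25. Tbc1d4 was lower in ST2+ Tregs in 27 of 27 pairs, and Actn1 was lower in 23 and higher in 3. The groups did not overlap for 7 of 8 genes in blood, spleen, lungs and colon, 6 in VAT and 2 in skin, against 5.14%, 2.43%, 3.65%, 5.68%, 3.34% and 1.42% of all tested genes. The pairs and ranges hold the values on which the genes were chosen, so these counts also follow from the choice and are no evidence.

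**Figure D1:**
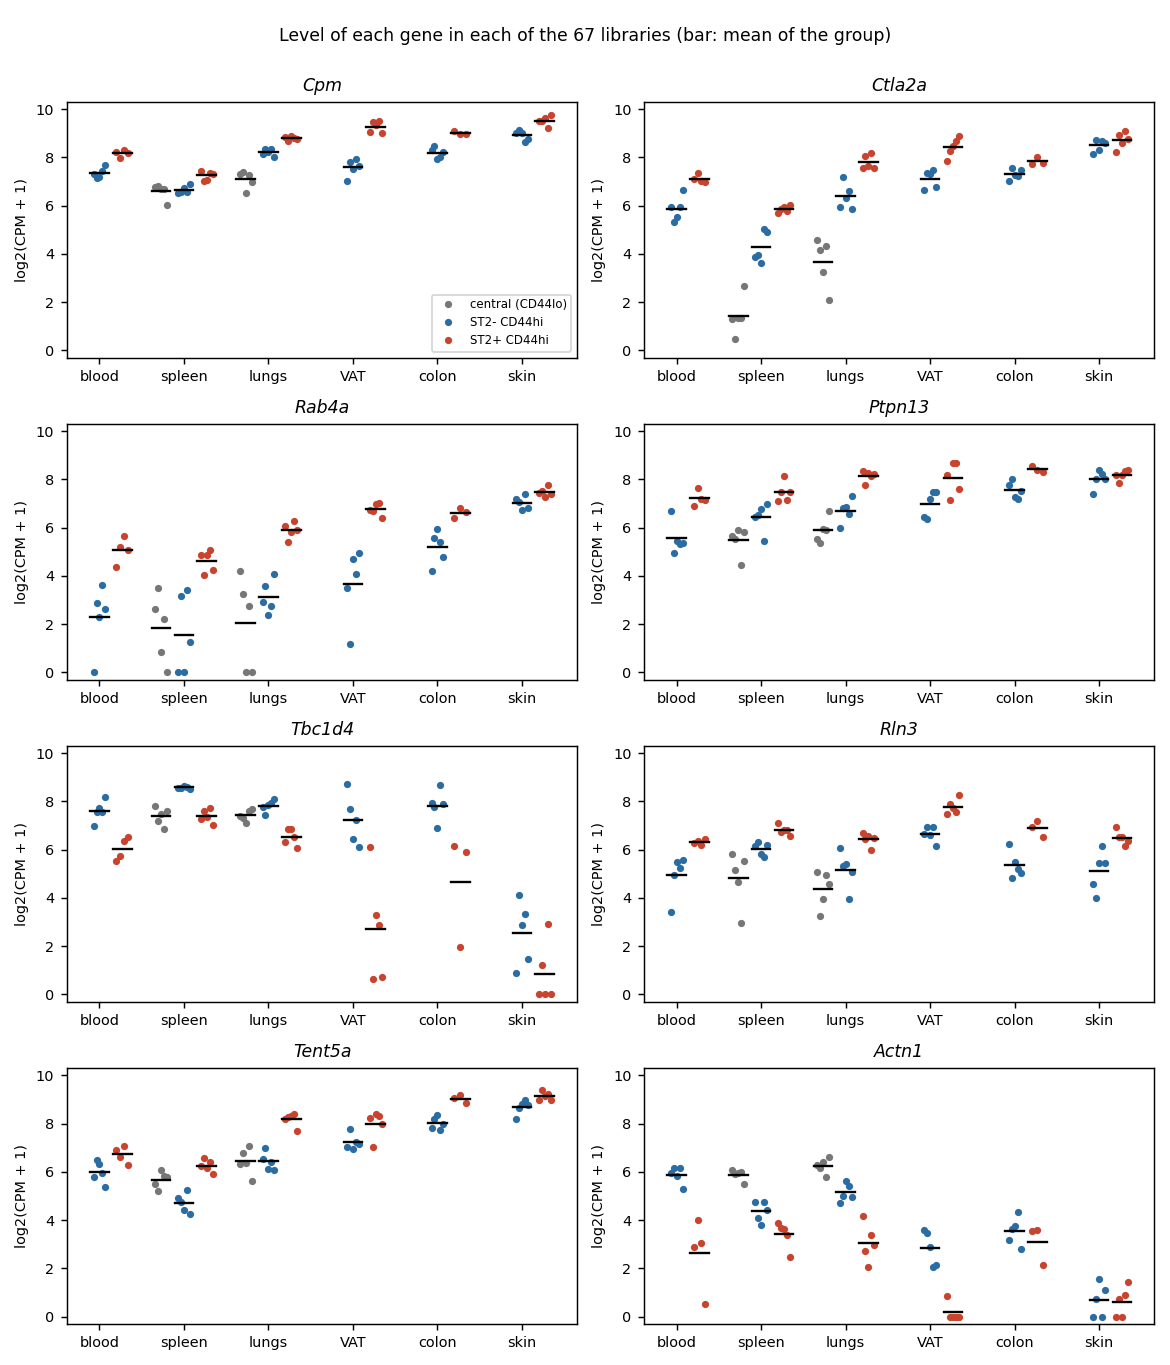
Level of the 8 genes in each of 67 libraries, as log2(CPM + 1), by tissue. Each point is a library, colors mark central, ST2- CD44hi and ST2+ CD44hi Tregs, and bars are group means on the log2 scale. Tbc1d4 and Actn1 run opposite to the other 6 genes and are low in skin in both CD44hi populations.

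Among the genes of the cell surface and the secretory route, Cpm (ENSMUSG00000020183, chr10:117629500-117687352, plus strand, GRCm38) encodes carboxypeptidase M, a membrane-anchored enzyme that removes C-terminal arginine and lysine from peptides. In VAT it stood at 129, 221, 182, 246 and 198 CPM in ST2- Tregs of mice 1 to 5. In VAT ST2+ Tregs of the same mice it stood at 522, 714, 642, 722 and 511 CPM. Every ST2+ value lay above every ST2- value, and the log2 difference in VAT was 1.68 (SE 0.15). In blood the ST2- values were 157, 139, 143, 174 and 204 CPM. The blood ST2+ values of mice 2 to 5 were 301, 252, 315 and 286 CPM. The groups did not overlap in any of the 6 tissues, but the log2 difference stayed between 0.57 and 0.82 in the other 5 tissues. The difference was thus much alike outside VAT, while the level itself was lowest in spleen and highest in skin in both populations.

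Rln3 (ENSMUSG00000045232, chr8:84042929-84045000, minus strand) encodes relaxin-3, a small peptide hormone of the insulin and relaxin family that is best known from the brain. It was detected in all 67 libraries (13 to 480 counts). In VAT ST2- Tregs it stood at 99.97, 122, 96.9, 124 and 69.4 CPM. In VAT ST2+ Tregs it stood at 175, 238, 211, 186 and 307 CPM. The 5 ST2+ values were above all 5 ST2- values, and VAT ST2+ Tregs lay above every library of the next group in the order, colon ST2+ Tregs, at 120.4 ± 27.3 CPM (SD, n = 3). In skin it stood at 22.6, 14.8, 42.7, 69.2 and 42.2 CPM in ST2- Tregs. In skin ST2+ Tregs it stood at 124, 90.0, 90.4, 70.9 and 80.8 CPM. The skin groups did not overlap, which held for Rln3 and Cpm alone among the 8, and the log2 difference was 1.26 (SE 0.35). The log2 difference over the 6 tissues lay between 0.78 in spleen and 1.497 in colon. Rln3 has only 634 bases of exon, and per kilobase it had the highest level of the 8 genes, at 121 CPM per kilobase as a mean over the 67 libraries, followed by Ctla2a at 76.5 and Cpm at 53.3.

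Ctla2a (ENSMUSG00000044258, chr13:60934155-60936625, minus strand) encodes a secreted inhibitor of cysteine cathepsins that resembles a cathepsin propeptide. In spleen it stood at 13.5, 14.6, 11.3, 31.5 and 29.2 CPM in ST2- Tregs. In spleen ST2+ Tregs it stood at 50.8, 56.8, 60.5, 53.7 and 63.9 CPM. The ranges did not overlap, and the log2 difference was 1.51 (SE 0.29). In skin it stood at 285, 421, 314, 411 and 389 CPM in ST2- Tregs. In skin ST2+ Tregs it stood at 297, 481, 390.2, 549.9 and 429.9 CPM. The skin ranges overlapped and the log2 difference was 0.24 (SE 0.27), the smallest of the 6 tissues. Of the 58-base words in its transcripts, 22.3% also occur in transcripts of other genes, 16.7% in the readthrough gene Gm49391, which had 0 counts in all 70 libraries, so its level is uncertain where counting dropped shared reads.

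Upstream sequence is shown for Rln3 and Ctla2a because, of the 7 genes with a promoter entry in RefSeq (GRCm38.p6; 250 bases before to 50 after the start site), these 2 held AGATAA, a form of the GATA factor motif, on either strand. The motif was searched in this form alone and with the values known. Of all 32851 promoter windows 11.2% hold it, a share per window, while some genes have 2 windows. Il1rl1 held 1 match in each of its 2 windows. Rln3 held 2 matches, 140 and 80 bases before the start, and 1.14% of windows hold 2 or more. Ctla2a has 2 windows, of which 1 held a match, 195 bases before its start, and the other held none. The window of its paralog Ctla2b held none. The 250 bases before each start are printed 5′ to 3′ on the minus strand, with AGATAA or its reverse complement in capitals.
Rln3, chr8:84044980-84045229: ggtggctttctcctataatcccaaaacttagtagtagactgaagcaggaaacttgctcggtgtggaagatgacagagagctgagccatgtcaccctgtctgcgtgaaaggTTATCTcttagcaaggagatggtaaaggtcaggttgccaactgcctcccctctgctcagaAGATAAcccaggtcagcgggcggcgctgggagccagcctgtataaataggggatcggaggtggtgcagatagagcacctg
Ctla2a, chr13:60936626-60936875: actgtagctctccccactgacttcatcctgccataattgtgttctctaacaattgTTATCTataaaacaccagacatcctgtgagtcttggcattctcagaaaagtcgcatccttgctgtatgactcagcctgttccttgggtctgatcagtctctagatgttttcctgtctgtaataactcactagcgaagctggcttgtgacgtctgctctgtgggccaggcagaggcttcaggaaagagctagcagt
Ctla2b, chr13:60897448-60897697: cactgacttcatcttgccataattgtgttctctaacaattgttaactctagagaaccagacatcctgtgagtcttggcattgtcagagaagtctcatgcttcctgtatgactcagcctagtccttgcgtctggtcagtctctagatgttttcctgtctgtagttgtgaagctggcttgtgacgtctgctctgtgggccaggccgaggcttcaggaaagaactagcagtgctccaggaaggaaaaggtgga
The Ctla2a and Ctla2b stretches were identical at 208 of 272 aligned columns (76.5%). The RefSeq start of Rln3 lies inside the gene span given above. A match is a run of letters and not a bound site.

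Rab4a and Tbc1d4 both belong to the machinery that sorts vesicles between endosomes and the surface, and they ran in opposite directions. Rab4a (ENSMUSG00000019478, chr8:123805985-123835287, plus strand) encodes a small GTPase of fast endosomal recycling. In lungs it stood at 6.47, 11.1, 4.13, 5.74 and 15.8 CPM in ST2- Tregs. In lungs ST2+ Tregs it stood at 66.6, 41.5, 55.6, 76.2 and 59.4 CPM. No ST2- library reached the lowest ST2+ library, and the log2 difference was 2.78 (SE 0.67). The difference was of like size in blood, spleen and VAT (2.70, 2.71 and 2.71) and smaller in colon and skin (1.33 and 0.43). In skin it stood at 145, 133, 105, 167 and 110.2 CPM in ST2- Tregs. In skin ST2+ Tregs it stood at 169.7, 184, 152, 219 and 166 CPM. The skin ST2- values were thus above the ST2+ values of blood, spleen and lungs in all 5 mice.

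Tbc1d4 (ENSMUSG00000033083, chr14:101442360-101609191, minus strand) encodes AS160, a Rab GTPase-activating protein that AKT phosphorylates and that holds glucose transporter vesicles inside muscle and fat cells. In spleen it stood at 377, 372, 404, 389.6 and 370.4 CPM in ST2- Tregs. In spleen ST2+ Tregs it stood at 152, 192, 164, 213 and 128 CPM. The groups were far apart there, with a log2 difference of -1.17 (SE 0.49), and spleen ST2- Tregs held the highest mean of the 14 groups. In VAT ST2- Tregs it stood at 423, 205, 86.2, 149 and 68.4 CPM. In VAT ST2+ Tregs it stood at 67.7, 0.573, 8.73, 6.43 and 0.639 CPM. Mouse 1 gave the highest value in both VAT groups, and the log2 difference of -3.39 (SE 0.55) became -4.82 without that mouse. In colon ST2- Tregs it stood at 243, 215, 118, 406 and 239.8 CPM. In colon ST2+ Tregs of mice 1, 3 and 4 it stood at 69.5, 2.95 and 58.5 CPM. The colon groups did not overlap. In skin it was low in both populations, at no more than 16.2 CPM in ST2- and 6.68 CPM in ST2+ Tregs.

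Ptpn13 (ENSMUSG00000034573, chr5:103425192-103598303, plus strand) encodes a large non-receptor tyrosine phosphatase with several PDZ domains. In lungs it stood at 61.5, 111, 115, 95.0 and 159 CPM in ST2- Tregs. In lungs ST2+ Tregs it stood at 325, 219.6, 310.2, 278 and 298 CPM. The lung groups did not overlap, with a log2 difference of 1.40 (SE 0.29). In VAT ST2+ Tregs it stood at 289, 142, 410.4, 405 and 193 CPM. These values spread from 142 to 410.4 CPM, and mouse 2 lay inside the range of ST2- Tregs (82.1 to 177 CPM). In skin the means were 261 ± 61.0 CPM (SD, n = 5) in ST2- and 294 ± 41.0 CPM (SD, n = 5) in ST2+ Tregs, and the ranges overlapped.

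Tent5a (ENSMUSG00000032265, chr9:85320439-85327348, minus strand), formerly Fam46a, encodes a non-canonical poly(A) polymerase that lengthens mRNA tails. In lungs it stood at 91.9, 127, 69.3, 84.0 and 66.0 CPM in ST2- Tregs. In lungs ST2+ Tregs it stood at 290.2, 309, 313, 339 and 205 CPM. These groups did not overlap, and the log2 difference of 1.74 (SE 0.22) was the largest of the 6 tissues. In VAT ST2+ Tregs it stood at 298, 130.1, 338, 316 and 249.9 CPM. Mouse 2 gave the lowest value there, as it did for Ptpn13, and it lay within the ST2- range of 123 to 219 CPM. That mouse was the 1 pair of 27 in which Tent5a was not higher in ST2+ Tregs. Its VAT ST2- library, made from 93 cells, held Tent5a at 219 CPM, against 123 to 148 CPM in the other mice.

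Actn1 (ENSMUSG00000015143, chr12:80167547-80260371, minus strand) encodes alpha-actinin 1, a crosslinker of actin filaments at adhesion sites. In blood it stood at 60.1, 69.4, 55.6, 70.4 and 38.0 CPM in ST2- Tregs. In blood ST2+ Tregs of mice 2 to 5 it stood at 6.39, 14.9, 7.37 and 0.452 CPM. The groups were separated by more than the spread within either, with a mean of 7.27 ± 5.91 CPM (SD, n = 4) in ST2+ against 58.7 ± 13.1 CPM (SD, n = 5) in ST2- Tregs. In VAT ST2- Tregs it stood at 10.9, 10.2, 6.30, 3.20 and 3.44 CPM. In VAT ST2+ Tregs 4 of 5 libraries had no count and mouse 1 had 2 counts (0.811 CPM). The ratio of ST2- to ST2+ counts in VAT was 35.6 (95% interval 9.50 to 299, exact binomial, counting error only). In skin neither population exceeded 1.91 CPM, and no difference could be detected at this depth.

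**Figure D2:**
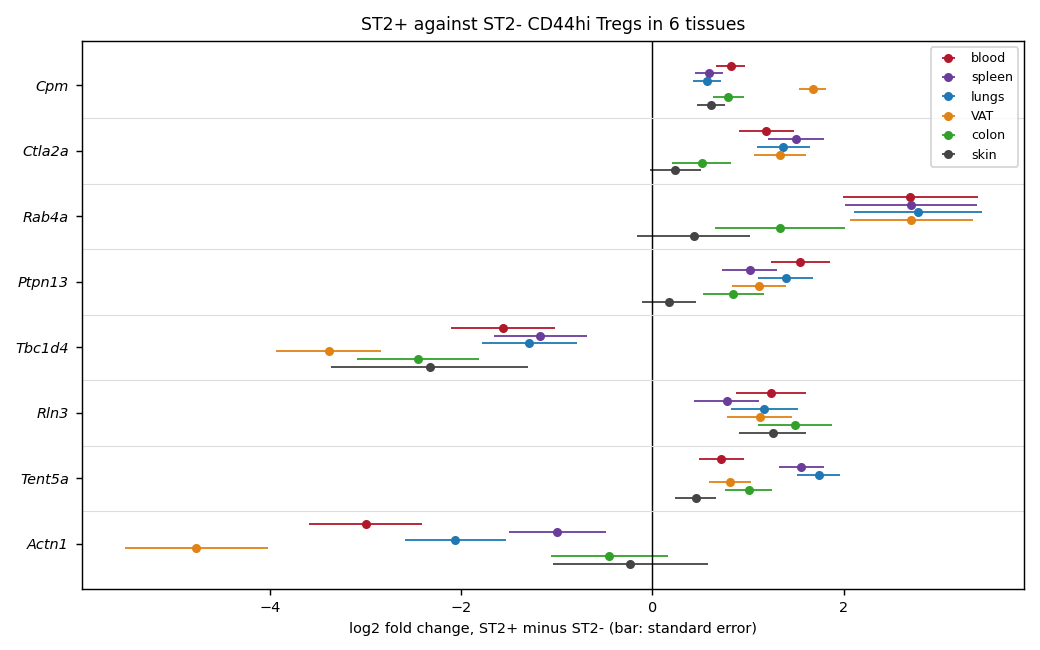
Log2 fold change of ST2+ minus ST2- CD44hi Tregs for the 8 genes in 6 tissues, with standard errors from edgeR (n = 3 to 5 libraries a group). Cpm, Ctla2a, Rab4a, Ptpn13, Rln3 and Tent5a lie right of 0 and Tbc1d4 and Actn1 left of it. Actn1 in VAT is a fitted value that rests on 2 counts in ST2+ Tregs.

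The sum of 3 markers of the effector state was higher in ST2+ Tregs without overlap in 4 tissues. The 3 effector markers (Cd44, Icos and Klrg1) summed to 268 to 625 CPM in blood ST2- and 1353 to 1497 CPM in blood ST2+ Tregs. They did not overlap in spleen, lungs and VAT either, but did in colon (1646 to 2561 against 2434 to 2761 CPM) and skin (2488 to 3800 against 2779 to 4049 CPM). The paper places Klrg1 in its core set of ST2+ genes outside skin, and CD44 was a gate of both sorts. No value per marker is given, so the sum does not show by itself a more effector state. Epithelial markers were higher without overlap in ST2+ Tregs of spleen (121 to 186 against 36.8 to 71.7 CPM) and lungs (108 to 156 against 25.9 to 63.4 CPM), and mast cell and granulocyte markers in lungs (8.69 to 27.8 against 0 to 5.87 CPM). Of the 6 epithelial markers, Epcam alone had counts in spleen ST2- Tregs, and Krt5, Krt14 and Sftpc were at 0 in spleen ST2+ Tregs. In lungs Krt8 and Krt14 were at 0 in both populations. Within groups, the effector sum had an r of 0.56 with Ctla2a over the 67 libraries, as a description. The part of these markers in the differences of the 8 genes was not tested.

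The level of each gene also depended on the tissue, which was tested on the mean of ST2+ and ST2- CD44hi Tregs, a quantity from the same libraries that the choice of the genes did not use. Cpm, Ctla2a and Tent5a were higher than in spleen in each of the 5 other tissues, Rab4a in VAT, colon and skin, and Tbc1d4 was lower in blood, VAT, colon and skin. Actn1 was lower in VAT and skin. Rln3 followed another order, with its highest level in VAT. In the F test over 6 tissues all 8 genes passed an adjusted p of 0.05, as did 67.2% of tested genes.

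Against spleen, 8 of 8 genes were called in VAT (15.9% of tested genes), 7 in skin (41.1%), 6 in colon (19.5%), 5 in blood (7.79%) and 3 in lungs (10.2%). In VAT 6 were higher and 2 lower (8.8% and 7.09% of tested genes), in skin 5 and 2 (21% and 20.2%), in colon 5 and 1 (14.7% and 4.73%), in blood 3 and 2 (2.98% and 4.81%) and in lungs 3 and 0 (6.16% and 4.02%). The 5 comparisons share the 10 spleen libraries. The median log2 fold change of the 8 genes was 1.69 in skin, 1.31 in colon, 1.15 in VAT, 0.85 in lungs and 0.51 in blood, and that of all tested genes lay between -0.07 and 0.03. Markers of other cells moved with tissue as well. Mast cell and granulocyte markers (4 genes, of which Cpa3, Mcpt4 and S100a8 were at 0 in skin ST2- Tregs) summed to 22.6 to 547 CPM in skin against 0 to 8.60 CPM in spleen CD44hi Tregs, and epithelial markers (6 genes, Krt8 at 0 in skin) to 84.3 to 1131 CPM in skin against 36.8 to 186 CPM in spleen. Epcam was the only epithelial marker with counts in spleen ST2- Tregs, and Krt5, Krt14 and Sftpc were at 0 in spleen ST2+ Tregs. Their part in the tissue differences was not tested.

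Cpm lay between 90.1 and 173 CPM in the 10 spleen CD44hi libraries and between 391 and 858 CPM in the 10 skin libraries. No skin library came near the spleen range. Its log2 fold change against spleen was 0.81 (SE 0.11, adjusted p = 4.39e-08) in blood and 2.28 (SE 0.11, adjusted p = 1.1e-26) in skin. In lungs, VAT and colon it was 1.55, 1.49 and 1.64, so these 3 organs stood between blood and skin. In lungs even the ST2- libraries (258 to 328 CPM) lay above all spleen ST2+ libraries (130 to 173 CPM).

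Ctla2a was also higher in every tissue, from 1.43 (SE 0.21, adjusted p = 6.56e-07) in blood to 3.54 (SE 0.21, adjusted p = 8.47e-22) in skin. The 10 spleen libraries held 11.3 to 63.9 CPM and the 10 skin libraries 285 to 549.9 CPM. Tent5a rose by 0.90 (SE 0.17, adjusted p = 7.69e-05) in blood, 3.05 (SE 0.17, adjusted p = 1.43e-21) in colon and 3.45 (SE 0.17, adjusted p = 1.47e-25) in skin. Its spleen range of 17.9 to 93.4 CPM lay below the lowest skin value of 295 CPM.

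Rab4a was higher by 2.14 (SE 0.47, adjusted p = 0.000403) in VAT, 2.67 (SE 0.49, adjusted p = 2.39e-05) in colon and 3.99 (SE 0.49, adjusted p = 4.43e-10) in skin. In lungs it was 1.24 (SE 0.47, adjusted p = 0.066), which missed the threshold and passed it with the mouse as a block (1.32, adjusted p = 0.0496), in DESeq2 (1.23, adjusted p = 0.0394) and in limma voom (1.86, adjusted p = 0.00208). In blood its 95% interval was -0.48 to 1.45. Ptpn13 was higher by 0.98 (SE 0.21, adjusted p = 0.000339) in colon and 1.10 (SE 0.20, adjusted p = 6.59e-06) in skin. Its call in VAT, 0.60 (SE 0.20, adjusted p = 0.0229), was lost without mouse 3 (adjusted p = 0.0532) and without mouse 4 (0.33, adjusted p = 0.332). In blood Ptpn13 was at -0.55 (SE 0.21, adjusted p = 0.0788), which passed without mouse 1 (-0.82, adjusted p = 0.00831).

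Tbc1d4 fell by 6.47 on the log2 scale in skin against spleen (SE 0.51, adjusted p = 1.15e-16). The 10 skin libraries held 0 to 16.2 CPM and the 10 spleen libraries 128 to 404 CPM. It fell by 2.14 in VAT (SE 0.37, adjusted p = 7.21e-06) and by 1.29 in colon (SE 0.39, adjusted p = 0.0102), and the colon call was lost without mouse 3 (adjusted p = 0.158). In blood it was -1.14 (SE 0.36, adjusted p = 0.0291), a call that 5 of 11 alternative settings lost (adjusted p from 0.0627 to 0.121 in those 5). Lungs did not pass, at -0.80 (SE 0.34, adjusted p = 0.112), but did in limma voom (-0.83, adjusted p = 0.000102). Actn1 fell by 4.30 in skin (SE 0.47, adjusted p = 1.49e-11) and by 3.45 in VAT (SE 0.46, adjusted p = 2.27e-08). Its spleen libraries held 4.59 to 25.8 CPM and its skin libraries at most 1.91 CPM. In blood, lungs and colon it did not pass the test, with intervals of -0.19 to 1.26, -0.44 to 0.98 and -1.33 to 0.23.

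Rln3 was higher in VAT than in spleen by 0.81 (SE 0.24, adjusted p = 0.00949). The VAT call was lost without mouse 3 or mouse 5 (adjusted p = 0.0559 and 0.0532). In blood it was lower, at -0.75 (SE 0.25, adjusted p = 0.0413), and that call was lost with the mouse as a block (-0.71, adjusted p = 0.0545), with no gene filter, with all 70 libraries and without mouse 1, 2, 3 or 5. Skin and lungs did not pass the test, at -0.54 (SE 0.24, adjusted p = 0.0558) and -0.57 (SE 0.24, adjusted p = 0.104). Skin passed without mouse 4 (-0.70, adjusted p = 0.016) and lungs in limma voom (-0.62, adjusted p = 0.0045). In skin the sign was opposite to that of Cpm, Ctla2a, Rab4a, Ptpn13 and Tent5a.

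**Figure D3:**
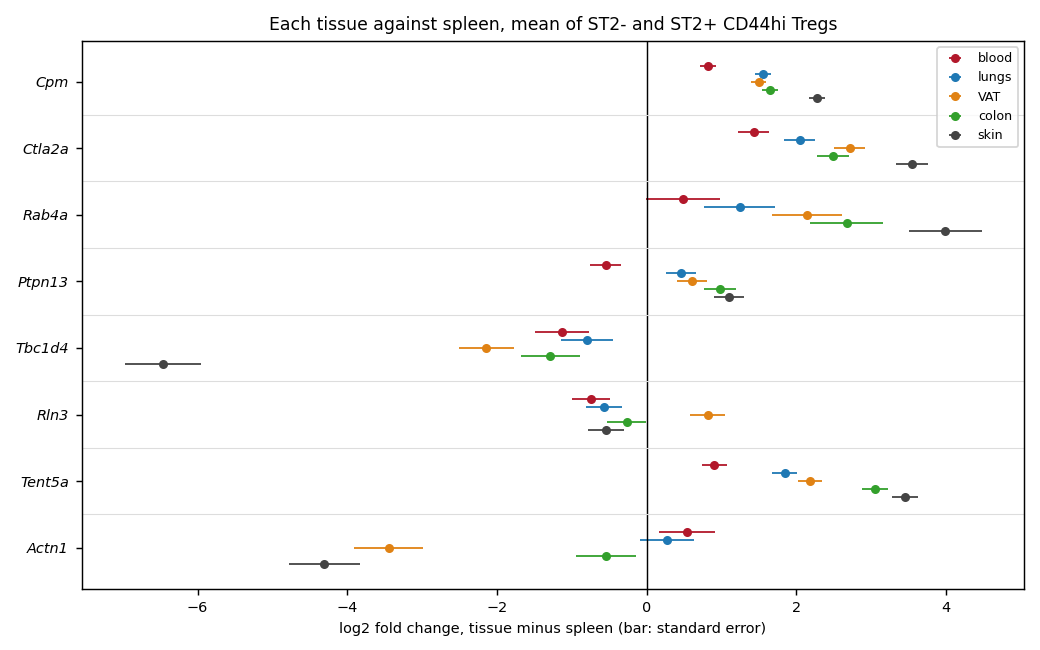
Log2 fold change of each tissue minus spleen, on the mean of ST2- and ST2+ CD44hi Tregs, with standard errors from edgeR. Points of Cpm, Ctla2a and Tent5a lie right of 0 in all 5 tissues, Tbc1d4 reaches -6.47 in skin, and Rln3 is right of 0 only in VAT.

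Central Tregs of spleen and lungs were compared with ST2- CD44hi Tregs of the same organ. ST2- CD44hi Tregs had more Ctla2a than central Tregs in both organs, more Ptpn13 and less Tent5a in spleen, and more Cpm in lungs. Of the 8 genes 3 were called in spleen (5.03% of tested genes) and 2 in lungs (5.53%). The ST2- libraries also stand in the contrasts that chose the genes, whereas the central libraries do not. Choosing genes with higher ST2+ than ST2- values favors low ST2- values, the direction of the Tent5a fall in spleen. For Tbc1d4 and Actn1 the choice favors high ST2- values. The p-values of these steps are therefore not free of the choice.

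Ctla2a stood at 1.47, 0.397, 1.55, 1.55 and 5.44 CPM in spleen central Tregs. In lung central Tregs it stood at 22.8, 17.1, 8.43, 18.9 and 3.19 CPM. Both central groups lay below the ST2- CD44hi libraries of their organ (11.3 to 31.5 CPM in spleen and 56.8 to 143 CPM in lungs), and no library overlapped. The log2 fold change of ST2- CD44hi over central Tregs was 3.22 (SE 0.40, adjusted p = 1.67e-08) in spleen and 2.62 (SE 0.31, adjusted p = 2.53e-09) in lungs. With the ST2+ groups the means ran from 2.08 through 20.02 to 57.1 CPM in spleen and from 14.1 through 87.1 to 225 CPM in lungs.

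Cpm stood at 108, 109.9, 103, 102 and 63.7 CPM in spleen central Tregs. In spleen ST2- CD44hi Tregs it stood at 90.1, 92.9, 107, 93.2 and 119 CPM. These groups overlapped, and the log2 fold change was 0.05 (SE 0.15, adjusted p = 1) with an interval of -0.24 to 0.33. In lung central Tregs it stood at 159.6, 166, 90.0, 152 and 126 CPM. All 5 lung ST2- libraries lay above these, by 1.10 (SE 0.15, adjusted p = 6.68e-08). The difference between the effect in lungs and that in spleen, a test added after the values were seen, was 1.05 (SE 0.21, adjusted p = 0.00731), a call made for 0.129% of tested genes. It was lost with all 70 libraries (1.04, adjusted p = 0.757) and without mouse 1, 2, 3 or 4 (adjusted p from 0.0618 to 0.176), while its size stayed between 0.92 and 1.26.

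Tent5a stood at 44.3, 36.1, 65.8, 55.8 and 54.4 CPM in spleen central Tregs. In spleen ST2- CD44hi Tregs it stood at 28.8, 25.5, 20.4, 36.9 and 17.9 CPM. It fell from central to ST2- CD44hi Tregs by 0.98 in spleen (SE 0.24, adjusted p = 0.00377), a call lost without mouse 3 (adjusted p = 0.122), and the spleen ST2+ mean (76.3 CPM) lay above both. In lungs the same step was -0.05 (SE 0.22, adjusted p = 0.996), with an interval of -0.49 to 0.39. Ptpn13 was higher in ST2- CD44hi than in central Tregs by 0.97 (SE 0.29, adjusted p = 0.0323) in spleen, a call lost without mouse 2, 3, 4 or 5 (adjusted p from 0.0797 to 0.167). In lungs it was 0.82 (SE 0.29, adjusted p = 0.0848).

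Tbc1d4 stood at 224, 143, 178, 117 and 196 CPM in spleen central Tregs. Every one of these lay below all spleen ST2- CD44hi libraries, and their mean of 172 CPM was close to the spleen ST2+ mean of 169.9 CPM. The step from central to ST2- CD44hi Tregs was 1.15 (SE 0.49, adjusted p = 0.19) in spleen and did not pass the test in edgeR, but it did in limma voom with quality weights (1.23, adjusted p = 1.47e-07). Actn1 stood at 75.7, 70.3, 84.8, 54.6 and 97.3 CPM in lung central Tregs, above all lung ST2- libraries (25.2 to 48.3 CPM). Its step was -1.11 (SE 0.50, adjusted p = 0.209) in lungs and -1.53 (SE 0.51, adjusted p = 0.0635) in spleen. Neither passed in edgeR, and both passed in DESeq2 (adjusted p = 0.0323 and 0.0012) and in limma voom. Rab4a did not pass the test in either organ, with intervals of -1.54 to 1.36 in spleen and -0.91 to 1.77 in lungs. Rln3 was 0.98 (SE 0.35, adjusted p = 0.0879) in spleen and 0.82 (SE 0.36, adjusted p = 0.188) in lungs. In spleen it passed in DESeq2 (adjusted p = 0.0442), in limma voom (adjusted p = 0.000784) and without mouse 1 (adjusted p = 0.0254), and in lungs without mouse 4 (adjusted p = 0.047).

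Neither central group entered the choice of the genes, and between them 2 of 8 genes were called (3.16% of tested genes). Ctla2a was higher in lungs than in spleen by 2.71 (SE 0.42, adjusted p = 3.92e-06). Tent5a was higher by 0.81 (SE 0.23, adjusted p = 0.0244), a call lost in limma voom, with all 70 libraries and without mouse 1, 2 or 4 (adjusted p from 0.0932 to 0.219). Cpm was higher by 0.51 (SE 0.15, adjusted p = 0.0304), a fold of 1.43 that fell short of the 1.5 asked for. The ranges of Cpm in the central groups overlapped through the lung library of mouse 3 at 90.0 CPM.

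Across the 14 groups, 6 genes rose with Il1rl1 and 2 fell. Il1rl1 itself, the gene of the sorted marker, ran from 0.228 CPM in spleen central Tregs to 1457 CPM in skin ST2+ Tregs. It reached 23.9 to 195 CPM in skin ST2- Tregs, against 0 to 3.32 CPM in spleen ST2- Tregs. Pearson's r of the group means of log2 CPM with Il1rl1 was 0.90 for Rab4a, 0.88 for Ptpn13, 0.81 for Cpm, 0.79 for Ctla2a, 0.76 for Rln3 and 0.73 for Tent5a, and -0.71 for Tbc1d4 and -0.81 for Actn1. Many other genes were more like the members than Il1rl1 was. Among 13172 genes ranked from the highest r, Il1rl1 stood at 55 for Rab4a, 98 for Rln3 and 117 for Ptpn13. It stood at 359 for Cpm, 469 for Ctla2a and 1005 for Tent5a, and at 12451 for Tbc1d4 and 12863 for Actn1. These are descriptions over 14 groups from the same 5 mice, and ST2, which Il1rl1 encodes, was the marker of the sort.

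Among the 6 ST2+ groups alone, where the sort is the same, r with Il1rl1 was 0.97 for Ctla2a, 0.94 for Cpm and 0.89 for Rab4a and 0.20 for Rln3. Among the 6 ST2- groups it was 0.95 for Ctla2a, 0.84 for Cpm, 0.96 for Rab4a and -0.16 for Rln3. Without skin the values in ST2+ groups were 0.96, 0.93, 0.82 and 0.45. In ST2- groups without skin they were 0.96 for Ctla2a, 0.68 for Cpm, 0.90 for Rab4a and 0.18 for Rln3, so that the sign of Rln3 turned. For Ptpn13, Tent5a, Tbc1d4 and Actn1 r was 0.61, 0.76, -0.84 and -0.80 in the ST2+ groups. In the ST2- groups it was 0.80, 0.94, -0.89 and -0.87. Without skin these 4 had 0.57, 0.66, -0.75 and -0.71 in ST2+ groups. In ST2- groups without skin they had 0.62, 0.97, -0.78 and -0.62. Within groups, where each library was taken relative to its group mean, the correlations between pairs of the 8 genes lay between -0.24 and 0.33 over 67 libraries. Those of the 8 genes with Il1rl1 were low as well, from -0.22 for Rln3 to 0.29 for Ctla2a.

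**Figure D4:**
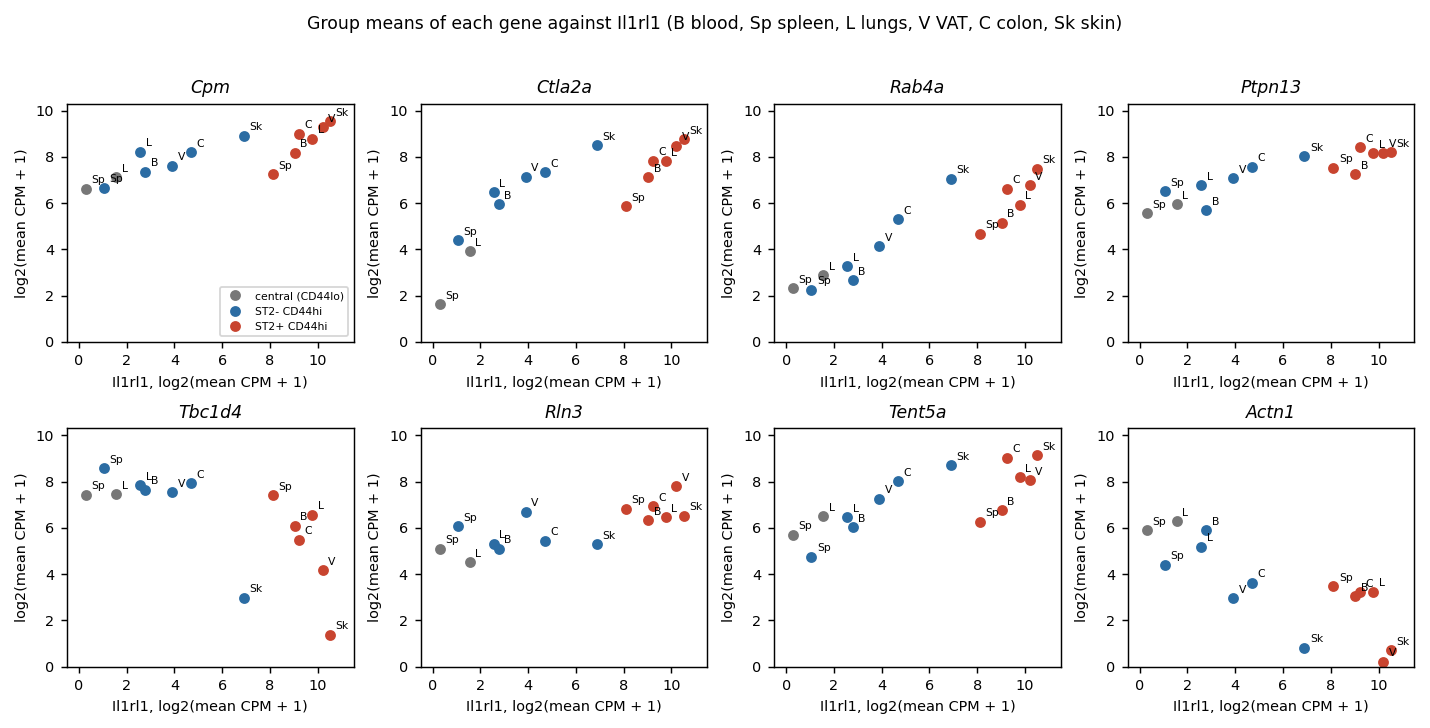
Group means of each gene against those of Il1rl1, both as log2(mean CPM + 1), for 14 groups. Colors mark central, ST2- CD44hi and ST2+ CD44hi Tregs and letters mark the tissue. Rab4a rises along both CD44hi populations, Rln3 separates the populations with little slope inside them, and Actn1 and Tbc1d4 drop toward skin.

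The 3 genes whose group means were most like each member's over the 14 groups were named by Pearson's r. For Cpm they were Mmp25 (0.97), Lmna (0.95) and Ehd4 (0.95), and for Tent5a Kctd12 (0.95), Pxdc1 (0.95) and Lmna (0.94). For Ctla2a they were Ahnak (0.98), Rora (0.98) and Sept2 (0.97). For Rab4a they were Gata3 (0.96), Pcsk1 (0.96) and Bmpr1a (0.96), of which Gata3 was higher in ST2+ Tregs in all 6 tissues (log2 difference 0.70 in skin to 1.40 in VAT). For Ptpn13 they were Frmd4b (0.96), Eml6 (0.96) and Lat2 (0.95). For Rln3 they were Echdc2 (0.91), Il10ra (0.89) and Pparg (0.89), the weakest likeness of the 8. For Tbc1d4 they were Ipcef1 (0.96), Clec2i (0.96) and Dpp4 (0.96) and for Actn1 Bicdl1 (0.97), Sh3bp5 (0.96) and Bach2 (0.96), where Bach2 encodes a repressor known to hold back effector differentiation.

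Of the nearest paralogs, Ctla2b was also higher on average in ST2+ Tregs, and higher in VAT, colon and skin than in spleen. Rab4b lay between 5.36 and 9.19 CPM as a group mean in every group, Tbc1d1 between 79.6 and 163 CPM and Actn4 between 214 and 382 CPM, and none passed the F test over tissues (adjusted p = 0.572, 0.32 and 0.0737). None of these 3 was called in an ST2 contrast. Ctla2b, which shares sequence with Ctla2a, was low throughout, with group means from 0.181 CPM in spleen central to 15.7 CPM in VAT ST2+ Tregs. Its ST2 difference was above 0 in all 6 tissues (log2 0.21 in skin to 2.37 in spleen) and was called in none by edgeR. Against spleen it was higher in VAT (2.35, SE 0.57, adjusted p = 0.00139), colon (2.02, SE 0.59, adjusted p = 0.0069) and skin (2.52, SE 0.57, adjusted p = 0.0002). Reads shared by Ctla2a and Ctla2b could be split between them. Rln1 had 1 count in all 67 libraries. Tent5c went the other way from Tent5a in VAT for ST2+ minus ST2- Tregs (log2 -0.95, SE 0.25, adjusted p = 0.0186).

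Cpd, which encodes carboxypeptidase D of the secretory pathway, separated central from CD44hi Tregs more sharply than Cpm. It had 0 counts in the 5 spleen central libraries and 12 in the 5 lung central libraries. In ST2- CD44hi Tregs it stood at 15.4 ± 6.85 CPM (SD, n = 5) in spleen and 44.2 ± 25.6 CPM (SD, n = 5) in lungs. In spleen that was at least 63.9-fold higher, with a floor of 3 counts over the central group. In lungs the log2 fold change was 5.28 (SE 0.61, adjusted p = 2.83e-09). Its ST2 difference was called in blood alone (log2 1.85, SE 0.50, adjusted p = 0.0197).

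Each gene has a list of paralogs and pathway partners, 8 lists in all. Over all tested genes, 4.04% were called in blood, 3.12% in VAT, 0.782% in lungs, 0.319% in spleen, 0.213% in skin and 0.0683% in colon, and no list was tested against that share. Of 26 endosomal Rab genes and effectors tested, 1 rose in blood and 1 in lungs, and in VAT 2 rose and 1 fell. Rab11fip1, an effector of recycling Rab proteins, was higher in ST2+ Tregs in blood (log2 0.98, SE 0.24, adjusted p = 0.00703), lungs (log2 0.99, SE 0.22, adjusted p = 0.00814) and VAT (log2 0.87, SE 0.22, adjusted p = 0.0105). Of 21 tested genes around TBC1D4, 1 rose in lungs and 1 in VAT, both times Irs2, an adaptor of the insulin receptor (log2 1.20, SE 0.28, adjusted p = 0.0151, and log2 1.82, SE 0.28, adjusted p = 1.1e-05), and in blood 1 rose and 1 fell. The list medians lay between 0.02 and 0.19, against -0.01 to 0.03 over all tested genes.

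Of 27 tested genes of alpha-actinin and focal adhesion, 3 rose in blood, 1 in lungs and 1 in skin, 1 rose and 1 fell in VAT and none was called in spleen or colon by edgeR. Itgb3, the integrin beta 3 subunit, rose in blood (log2 0.998, SE 0.30, adjusted p = 0.0387), lungs (log2 1.15, SE 0.29, adjusted p = 0.0266) and VAT (log2 1.65, SE 0.29, adjusted p = 0.000116), opposite to Actn1. Of 19 tested cathepsins and inhibitors, 1 rose and 1 fell in blood, 1 rose in spleen, 1 rose in colon and 2 fell in VAT. Ctsw, a cathepsin of cytotoxic lymphocytes, was lower in ST2+ Tregs in blood (log2 -2.32, SE 0.51, adjusted p = 0.00252) and VAT (log2 -2.23, SE 0.47, adjusted p = 0.00148). Of 15 tested non-receptor tyrosine phosphatases 1 rose in blood and 1 rose and 1 fell in VAT. Of 10 tested carboxypeptidases 1 rose in blood and 1 in skin, the latter Cpa3, a mast cell protease that is also on the mast cell marker list, of 10 terminal nucleotidyltransferases 1 fell in VAT, and of the relaxin family 2 of 8 could be tested and neither was called in edgeR.

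The 3 shallow libraries took no part in the choice of the genes. In the blood ST2+ library of mouse 1 (488666 counts from 66 cells), Ctla2a, Ptpn13 and Rln3 had 123, 137 and 126 counts, or 252, 280.4 and 258 CPM of the library's total, above every blood ST2- library. Actn1 had 2 counts, below every ST2- library. Cpm, Rab4a, Tbc1d4 and Tent5a did not stand on the ST2+ side. Cpm had 1 count, or 2.05 CPM (95% exact Poisson interval 0.0518 to 11.4), against 264 to 324 in the kept ST2+ libraries. Rab4a had 0 counts, which allows up to 6.14 CPM (3 counts), and Tbc1d4 stood at 259.9, inside the ST2- range. Tent5a had 4 counts (8.19 CPM), below every ST2- library.

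In the colon ST2+ library of mouse 5 (62333 counts), Ctla2a had 24 counts (385 CPM, interval 247 to 573) and Rln3 had 10 (160.4, interval 76.9 to 295), and both intervals lay above all colon ST2- libraries. Cpm had 23 counts (369 CPM, interval 234 to 554), which overlapped the ST2- range of 233 to 338. By the midpoint between the kept ST2+ and the ST2- libraries, 3 of 8 genes stood on the ST2+ side, Ctla2a, Rln3 and Tbc1d4 (3 counts, 48.1 CPM). Cpm, Rab4a (32.1 CPM), Ptpn13 (209 CPM), Tent5a (289 CPM) and Actn1 (32.1 CPM) did not. The colon ST2+ library of mouse 2 held 3582 counts and 0 to 2 counts of each gene, so no difference was detectable at that depth. All these intervals cover counting error only.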

How the data were processed

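RNA-seq counts were available for 70 libraries. As the authors describe, SMART-Seq v4 cDNA was sequenced as single reads of 58 bases, aligned with STAR to GRCm38 and counted per Ensembl gene with HTSeq 0.4.1. The strand setting is not given in the sources used here. The deposited counts are raw whole numbers with no normalization. Libraries above 1000000 counts were kept, after the authors' own rule, which left 67. Protein-coding genes (GENCODE M21 matched 53274 of 53465 IDs) that reached 1 CPM in no fewer than 10% of libraries were tested, 13173 in all. CPM values use TMM library sizes.

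Main fits used the quasi-likelihood test of edgeR 4.0.16 in R 4.3.3, with 14 group terms and no mouse term, and Benjamini-Hochberg adjustment over all tested genes. Calls needed a fold of 1.5 and an adjusted p of at most 0.05. Intervals of log2 fold changes are 95% (1.96 SE). The edgeR fit was tested on simulated data. Alternatives were DESeq2 1.42.0, limma voom with quality weights (limma 3.58.1), median-of-ratios factors, no gene filter, the mouse as a block, all 70 libraries and leaving out each mouse. The same 5 mice gave every group, so replicate numbers pair the libraries. Deviations of ST2+ and ST2- libraries from their group means had a mean correlation of 0.0789 over 27 pairs. Main p-values ignore that pairing and rest on 5 mice.

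The members and all lists were chosen with earlier results of these data known. Genes named beside the 8 are their closest paralogs, partners called in at least 2 ST2 contrasts and the 3 genes most like each in group means. Promoters are from RefSeq (GRCm38.p6). Intervals of single libraries are exact Poisson and cover counting error only. Exons of Ptpn13 and Actn1 overlap antisense genes. A further marker of the central gate is not reported here.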

Additional observations from a re-analysis of the deposited data

Results flagged for a closer look

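Of 104 sets of 4 or 5 libraries examined, 9 held a library far from the others by Dixon's test. Chance gives about 1 in 20 if the values are normal, which CPM near 0 are not. Mouse 5 stood apart in spleen central Tregs for 3 genes. There Cpm was 63.7 CPM against 102 to 109.9 CPM in the other mice, Ctla2a was 5.44 CPM against 0.397 to 1.55 CPM and Actn1 was 43.5 CPM against 59.5 to 65.6 CPM. Mouse 1 stood apart in VAT ST2+ Tregs for Tbc1d4, at 67.7 CPM against 0.573 to 8.73 CPM. Actn1 was flagged there at 0.811 CPM (2 counts) where the other 4 libraries had no count. With 4 values at 0 the test flags any count above 0, so nothing is read from that flag. Ptpn13 was 104 CPM in blood ST2- Tregs of mouse 1 against 30.0 to 42.4 CPM, and 282 CPM in spleen ST2+ Tregs of mouse 3 against 138 to 179 CPM. Tbc1d4 was 6.68 CPM in skin ST2+ Tregs of mouse 4 against at most 1.32 CPM. Tent5a was 219 CPM in VAT ST2- Tregs of mouse 2 against 123 to 148 CPM.

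The difference of Cpm between ST2- CD44hi and central Tregs was larger in lungs than in spleen by 1.05 on the log2 scale (adjusted p = 0.00731 in edgeR, and 0.000337 to 0.757 over the alternatives).

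Libraries left out for depth held some genes above every ST2- library, while in the blood library Cpm, Rab4a, Tbc1d4 and Tent5a and in the colon library Cpm, Rab4a, Ptpn13, Tent5a and Actn1 did not stand on the ST2+ side of the midpoint. As CPM of its total, the blood ST2+ library of mouse 1 held Ctla2a at 252, Ptpn13 at 280.4 and Rln3 at 258, each above every blood ST2- library. The colon ST2+ library of mouse 5 held Cpm at 369, Ctla2a at 385 and Rln3 at 160.4, each above every colon ST2- library, although the counting interval of Cpm reached into the ST2- range.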

How the results depend on the processing

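The number of the 8 genes called depended on the test and on single mice. In ST2+ against ST2- Tregs, DESeq2 called 5 in spleen, 3 in colon and 2 in skin, and limma voom called 6 in spleen and 5 in colon. The share of all tested genes moved as well, from 0.319% in edgeR to 0.759% in DESeq2 and 1.71% in limma voom in spleen, and from 0.0683% to 0.182% and 2.24% in colon. In skin it was 0.213% in edgeR and 0.789% in DESeq2. With all 70 libraries 3 were called in lungs (0.439% of tested genes), 0 in colon (0.0983%) and 0 in skin (0.106%) by edgeR. Leaving out 1 mouse gave 3 to 6 in blood, 1 to 2 in spleen, 2 to 6 in lungs, 5 to 7 in VAT, 0 to 2 in colon and 0 to 1 in skin. The share of all tested genes then ran from 1.86% to 3.42% in blood, 0.122% to 0.228% in spleen and 0.296% to 0.621% in lungs. In VAT it ran from 1.76% to 3.94%, in colon from 0.0156% to 0.13% and in skin from 0.0919% to 0.189%. Without mouse 3, 3 were called in blood (1.86% of tested genes), 1 in spleen (0.125%) and 5 in VAT (1.89%). Against spleen, limma voom called 6 in lungs (16.7% of tested genes) and all 70 libraries gave 3 in blood (8.03%). Without 1 mouse it was 3 to 5 in blood (4.71% to 6.96%). Between ST2- CD44hi and central Tregs of spleen, DESeq2 called 5 (6.49% of tested genes) and limma voom called 6 (11.6%). Without 1 mouse it was 1 to 4 (3.54% to 4.26%). Between central groups, limma voom and all 70 libraries each called 1 (7.2% and 1.9% of tested genes). Without 1 mouse it was 1 to 3 (1.86% to 3.29%). With the mouse as a replicate block 7 genes were called in blood (4.42% of tested genes) and 4 in spleen (0.41%) for ST2. Apart from Rln3 in blood and Rab4a in lungs against spleen, the block changed no other tested call. The sign turned, never with a call, for Tent5a in lungs against central Tregs (0.0353 in limma voom, -0.16 to 0.15 without 1 mouse) and Rab4a between central groups (-0.15 in limma voom, -0.0911 to 1.31 without 1 mouse). Without 1 mouse it also turned against central Tregs for Cpm in spleen (-0.17 to 0.13) and Rab4a in spleen (-0.80 to 0.35) and lungs (-0.27 to 1.40), and for Tbc1d4 between central groups (-0.14 to 0.13). For Actn1 in ST2+ against ST2- Tregs it turned in skin (-0.84 to 0.70) and colon (-0.78 to 0.19). The sign also turned for the step from central to ST2- CD44hi Tregs in lungs minus the same step in spleen. Without 1 mouse that difference of steps ran from -0.0525 to 1.32 for Rab4a, -0.26 to 0.0027 for Ptpn13 and -0.46 to 0.36 for Rln3. The cause was not tested. Depth limits Actn1 and Rab4a most, with no count in 8 and 6 of 67 libraries.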

Other observations

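Counts of partner genes that differed between tissues are given beside the share over all genes, with no test of the difference. Against spleen, 8 of 21 tested genes around TBC1D4 were higher in skin and none was lower by edgeR, where 21% of all tested genes were called higher and 20.2% lower. They were Irs2, Lnpep, Rab2a, Rab8b, Slc2a1, Ywhae, Ywhag and Ywhaz, of which Slc2a1 encodes the glucose transporter GLUT1 and Lnpep an aminopeptidase carried in glucose transporter vesicles. Of 26 endosomal Rab genes and effectors, 9 were higher and 2 lower in skin. Among 27 genes of alpha-actinin and focal adhesion, 8 were higher and 0 lower in lungs, where 6.16% of tested genes were called higher and 4.02% lower, and 10 were higher and 7 lower in skin. Of 19 cathepsins and inhibitors, 6 were higher and 2 lower in colon (14.7% and 4.73% of tested genes), and 7 were higher and 4 lower in skin.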
